A study of Mus musculus with 6 samples.

Results

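The 10 genes described here encode the machinery with which a cell shows peptides from its own proteins to CD8 T cells on MHC class I molecules. They were chosen by symbol and role, with earlier results of these libraries known: H2-K1, H2-D1, B2m, H2-T23, H2-M3, Tap1, Tap2, Tapbp, Erap1 and Nlrc5. All 10 were found among the 46983 genes counted, and all 10 are among the 12336 genes that passed the filter on low counts. The data are RNA sequencing libraries of naïve CD4 T cells of the mouse, taken from lymph nodes by cell sorting as DAPI-negative and CD44- cells within the TCRb+ CD4+ gate, among other markers. There were 3 Control libraries, from males of genotype Rnmt fl/fl CD4cre -, and 3 Rnmt cKO libraries, from males of genotype Rnmt fl/fl CD4cre +. Both groups therefore carry Rnmt alleles with loxP sites around 1 exon, on a C57B6/J background. The Cre transgene is driven by Cd4 regulatory sequence, which is first active in thymocytes, so that deletion precedes the naïve stage and extends to CD8 T cells, and effects of the transgene and of Rnmt loss cannot be told apart. RNMT methylates the cap guanosine of RNA polymerase II transcripts. The labels give no age and do not say whether each library came from a separate animal, so p-values measure the spread between these libraries.

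MHC class I presentation works as an assembly line. Proteasomes cut cytosolic proteins, the TAP1-TAP2 transporter carries the peptides into the endoplasmic reticulum, ERAP1 trims them, and tapasin, the product of Tapbp, holds an empty class I molecule at the transporter until a fitting peptide is bound. The class I molecule is a heavy chain, here H-2K or H-2D, paired with the invariant light chain β2-microglobulin from B2m. H2-T23 and H2-M3 encode non-classical heavy chains, Qa-1 and H2-M3, which present restricted sets of peptides. Lymphocytes carry much class I on their surface. The promoters of several of these genes are known targets of NLRC5, a transactivator that has no DNA-binding domain of its own. NLRC5 acts through an RFX, CREB/ATF and NF-Y complex. Several are also known targets of interferon and NF-κB signals through IRF, STAT and Rel proteins.

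Letters resembling some of these elements were searched for in the reference promoters of the members, and none for RFX. Of the 10 genes, 8 matched an entry of the RefSeq promoter sequences of build GRCm38.p6, and the bases before the annotated start were searched on both strands. Letters searched were GAAANNGAA (interferon-response-like), CCAAT (the NF-Y box), GGGNNTTCC (NF-κB-like), TTCNNNGAA and TTCCNGGAA (STAT-like), TGACGCA and TGACGTCA (CREB/ATF-like) and the shorter TGACG, which was added after the sequences were seen. H2-K1 (chr17:34000348-34000547, minus strand), B2m (chr2:122147487-122147685, plus strand) and H2-M3 (chr17:37270034-37270219, plus strand) are shown because they hold more than 1 kind of match in 1 stretch and lie outside annotated exons. Matches of either strand to GGGNNTTCC, GAAANNGAA, TGACG and CCAAT are in capitals (ATTGG is CCAAT read on the other strand).
H2-K1: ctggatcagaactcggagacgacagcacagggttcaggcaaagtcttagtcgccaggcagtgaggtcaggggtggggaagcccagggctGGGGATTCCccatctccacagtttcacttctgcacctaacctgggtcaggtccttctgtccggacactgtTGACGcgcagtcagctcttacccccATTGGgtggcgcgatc
B2m: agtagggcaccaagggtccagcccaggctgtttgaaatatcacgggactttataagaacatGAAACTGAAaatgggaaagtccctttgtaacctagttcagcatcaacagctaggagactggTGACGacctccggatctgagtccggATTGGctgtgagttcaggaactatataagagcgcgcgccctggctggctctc
H2-M3: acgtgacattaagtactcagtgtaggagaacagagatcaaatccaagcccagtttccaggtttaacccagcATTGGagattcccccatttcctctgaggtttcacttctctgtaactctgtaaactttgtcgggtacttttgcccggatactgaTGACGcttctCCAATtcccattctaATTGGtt

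The other members are shown only by windows of 30 bases around a match, because their sequence before the RefSeq start overlaps annotated exons. The H2-K1 and H2-D1 windows around the NF-κB-like match, at chr17:34000439-34000468 and chr17:35262913-35262942, were identical at 29 of 30 bases, and the promoters of the 2 heavy chain genes were 87.4% identical over 190 bases.
H2-K1, NF-κB-like: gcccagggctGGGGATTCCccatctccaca
H2-D1, NF-κB-like: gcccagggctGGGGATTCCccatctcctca
H2-T23, interferon-response-like, chr17:36032805-36032834: tcctactgctTTCTCTTTCataaagacaca
Erap1, interferon-response-like, chr13:74639823-74639852: cacgtgccctgccggtccaccTTCACTTTC
Tap1, CCAAT, chr17:34187322-34187351: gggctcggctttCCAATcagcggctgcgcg
Tap1, TGACG, chr17:34187458-34187487: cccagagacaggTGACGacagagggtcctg
Tapbp, CCAAT, chr17:33919301-33919330: attaaaatatttATTGGtcacttcacttgg

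CCAAT was the most widespread of the elements, in 7 of the 8 promoters, all but Erap1, against 33.8% of 32851 promoters searched over the same length. TGACG stood in 5, those of H2-K1, H2-D1, B2m, H2-M3 and Tap1, against 17.8% of all. These letters were added after the same promoters were seen, so their excess over that share is not a result. The H2-K1 and H2-D1 promoters were 87.4% identical, so matches shared by these 2 are not separate. The interferon-response-like letters matched in B2m, H2-T23 and Erap1 (7.13% of all promoters) and the NF-κB-like letters in H2-K1 and H2-D1 (4.98%). TTCNNNGAA matched in H2-M3 alone (7.02%), and TTCCNGGAA, TGACGCA and TGACGTCA in none of the 8 (0.913%, 1.75% and 1.55%). CCAAT and TGACG are short and match many promoters, and a match describes letters and not a bound site. Lack of a match does not show that an element is absent, since only fixed letters were searched.

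Sense counts assigned to genes numbered 8873413 to 11277764 per library and replicate pairs differed beyond sampling noise (chi-square over degrees of freedom, 3.85 to 25.2). Rnmt fell from 56.02 ± 3.94 to 35.3 ± 7.88 CPM, which are counts scaled to a common library size with TMM factors (SD, n = 3 in each group). Its log2 fold change was -0.67 (edgeR exact test, adjusted p of 0.00035), and counts over the whole gene take in exons outside the floxed exon. The share of uniquely mapped reads outside genes was 36.1%, 39.7% and 46.1% in Control 1, 2 and 3 and 47.9%, 46.5% and 31.8% in Rnmt cKO 1, 2 and 3, so that Rnmt cKO 3 lay below every control and Control 3 lay close to Rnmt cKO 1 and 2. All 14 defining markers of CD4 T cells were detected, Cd4 itself at 669 ± 16.7 CPM in controls (SD, n = 3).

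Of the 10 class I presentation genes 1, Tapbp, rose in Rnmt cKO cells past the threshold, an adjusted p of 0.05 in the edgeR exact test over 12336 genes. The other 9 had small differences in the same direction that did not pass. In the same test 8.00% of all genes were higher and 6.84% lower, so 1 of 10 is near the background. No member was lower (0 of 10), also at an unadjusted p under 0.05 and by the quasi-likelihood test or DESeq2, while 3 were higher at an unadjusted p under 0.05. The share of all genes under that unadjusted p is not given here, so the 3 have no background to be read against. The same holds for counts at an unadjusted p in the gene lists below. The log2 fold change, Rnmt cKO over Control, was above 0 for 10 of 10 members, as it was for 52.2% of all genes, and its median was 0.15 against 0.01 over all genes tested and 0.03 over the 2026 genes with at least 100 CPM in controls. These are bulk libraries, in which fewer cells of a type and less RNA per cell cannot be told apart. Every Rnmt cKO library lay above every control for 2 members, Tapbp and Tap1, against 16.6% of all genes, and below for 0, against 14.9%. The plot of the 10 genes by library shows each value beside the spread of its group.

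**Figure D1:**
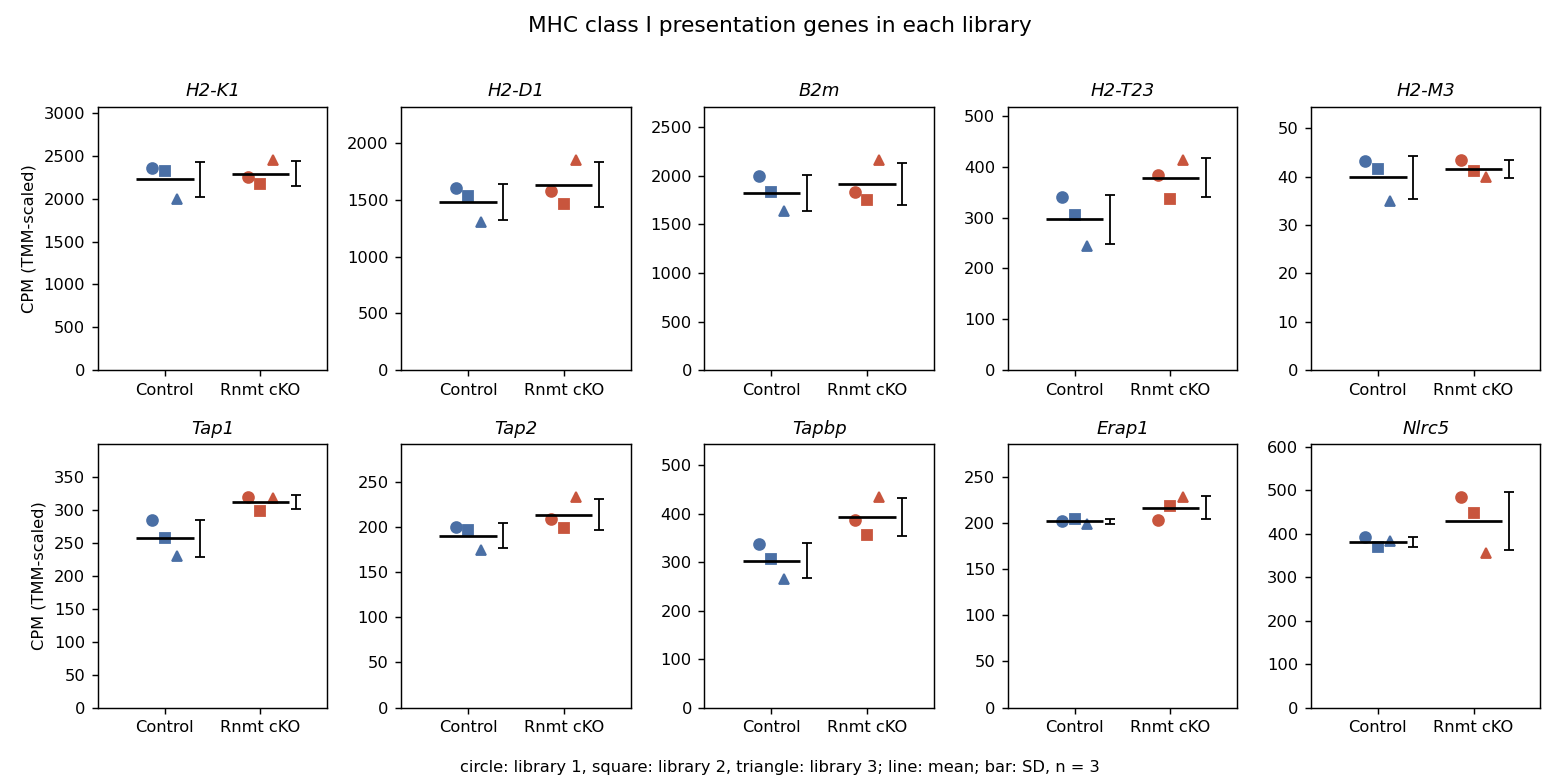
Level of each of the 10 class I presentation genes in CPM (TMM-scaled, vertical axis from 0), with 3 Control libraries in blue and 3 Rnmt cKO libraries in red, the mean as a line and the SD as a bar. The groups are separated for Tap1 and Tapbp and overlap for the other 8, with Control 3 (blue triangle) lowest of all 6 libraries for 9 genes.

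Tapbp had the largest log2 fold change of the 10. The gene (ENSMUSG00000024308, chr17:33915899-33929292, plus strand) stood at 337, 306 and 265 CPM in Control 1, 2 and 3 and at 388, 357 and 435 CPM in Rnmt cKO 1, 2 and 3. The lowest Rnmt cKO library was thus above the highest control. The mean rose from 303 ± 36.0 to 393 ± 39.2 CPM (SD, n = 3 in each group), 1.30-fold, which is 0.38 ± 0.13 (SE) on the log2 scale with an exact test adjusted p of 0.0160. The call was lost when some libraries were left out: leaving out Control 2 gave a log2 fold change of 0.38 and an adjusted p of 0.0920, leaving out Control 3 gave 0.29 and 0.155, and leaving out Rnmt cKO 1 gave 0.39 and 0.0583. Over 16 other settings the log2 fold change of Tapbp lay between 0.28 and 0.50, and 12 of the 16 put it past the threshold. Tapbp as annotated overlaps Zbtb22 on the same strand over 3422 bases, and a read that falls on exons of both genes is left out of the counts as ambiguous.

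Tap1 (ENSMUSG00000037321, chr17:34187553-34197225, plus strand), a subunit of the peptide transporter, stood at 285, 257 and 229 CPM in the 3 controls and at 319, 299 and 317 CPM in the 3 Rnmt cKO libraries. As with Tapbp, no Rnmt cKO library fell into the control range. The means were 257 ± 28.1 and 312 ± 11.3 CPM (SD, n = 3 in each group), and the log2 fold change of 0.28 ± 0.10 (SE) had an exact test adjusted p of 0.0578, just short of the threshold. It passed in 3 of the 16 other settings, among them the one without Control 1 (0.36, adjusted p of 0.0249).

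Tap2 (ENSMUSG00000024339, chr17:34203527-34216321, plus strand), which encodes the partner subunit, had 201, 197 and 175 CPM in controls and 210, 199.5 and 234 CPM in Rnmt cKO libraries. Here Rnmt cKO 2 lay just below Control 1, so the groups overlapped. Its log2 fold change of 0.17 ± 0.09 (SE) had an exact test adjusted p of 0.326. Erap1 (ENSMUSG00000021583, chr13:74639568-74693201, plus strand), the aminopeptidase that trims peptides to class I length, had the smallest SD in relation to its mean of the 10 in controls, at 202, 204 and 199 CPM, against 203, 218 and 228 CPM in Rnmt cKO libraries. Control 2 and Rnmt cKO 1 overlapped by less than 1 CPM, and the log2 fold change of 0.10 ± 0.05 (SE) had an adjusted p of 0.552.

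The classical chains, the members with the highest level per length, did not pass the test. H2-K1 (ENSMUSG00000061232, chr17:33996017-34000347, minus strand) had 2352, 2325 and 1992 CPM in controls and 2257, 2165 and 2454 CPM in Rnmt cKO libraries. Only Rnmt cKO 3 exceeded Controls 1 and 2. For H2-K1 the log2 fold change was 0.04 ± 0.09 (SE), with an exact test adjusted p of 0.881, and its sign depended on the libraries: it was -0.030 without Control 3 and -0.025 without Rnmt cKO 3.

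H2-D1 (ENSMUSG00000073411, chr17:35262730-35267499, plus strand) had 1609, 1533 and 1308 CPM in controls against 1584, 1465 and 1856 CPM in Rnmt cKO libraries. Rnmt cKO 1 and 2 lay within the control range. Its log2 fold change was 0.14 ± 0.14 (SE), with an adjusted p of 0.554. B2m (ENSMUSG00000060802, chr2:122147686-122153083, plus strand), the light chain that every class I molecule needs, had 2002, 1835 and 1639 CPM in controls and 1832, 1752 and 2167 CPM in Rnmt cKO libraries. As for both heavy chains, Control 3 was the lowest and Rnmt cKO 3 the highest of the 6. B2m had a log2 fold change of 0.07 ± 0.13 (SE) and an adjusted p of 0.808, and the value was -0.0017 without Control 3 and -0.044 without Rnmt cKO 3.

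The heavy and light chains kept similar proportions in all 6 libraries. Per length, in RPKM (counts scaled by library size and by exon length), the ratio of H2-K1 plus H2-D1 to B2m was 0.966 ± 0.0310 in controls and 0.972 ± 0.0295 in Rnmt cKO libraries (SD, n = 3 in each group), and such a ratio does not depend on the scaling between libraries. H2-K1 to H2-D1 was 1.91 ± 0.0432 and 1.79 ± 0.101, and Tap1 to Tap2 was 1.57 ± 0.0787 and 1.70 ± 0.104 (SD, n = 3 in each group). The groups overlapped in all 3 ratios.

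Of the non-classical heavy chains among the members, H2-T23 (ENSMUSG00000067212, chr17:36029773-36032855, minus strand), whose Qa-1 product binds leader peptides of classical heavy chains and is read by CD94/NKG2 receptors, had 340.5, 305 and 244 CPM in controls and 385, 337 and 414 CPM in Rnmt cKO libraries. Rnmt cKO 2 lay below Control 1, so the groups overlapped by that pair. The means were 296.5 ± 48.9 and 379 ± 38.6 CPM (SD, n = 3 in each group), and the log2 fold change of 0.35 ± 0.17 (SE), close in size to that of Tapbp, had an exact test adjusted p of 0.0576. It passed the threshold in 4 of 16 other settings, with an adjusted p of 0.0170 without Control 1 and 0.0428 without Rnmt cKO 2 in a range of 0.00142 to 0.321. H2-M3 (ENSMUSG00000016206, chr17:37270220-37274484, plus strand), which presents N-formylated peptides, had 43.3, 41.5 and 34.9 CPM in controls and 43.5, 41.3 and 39.9 CPM in Rnmt cKO libraries. These values overlapped, with Control 3 apart from the rest. H2-M3 had a log2 fold change of 0.06 ± 0.10 (SE) with an adjusted p of 0.840, and of -0.030 without Control 3.

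Heavy chain genes resemble each other, and only uniquely mapped reads were counted, so their levels are uncertain. Of all 75-base windows of the longest coding transcript, 13.1% in H2-T23, 6.90% in H2-D1 and 1.55% in H2-K1 also occurred in transcripts of other genes, against 0.992% in Tapbp and 0 in the other 6 members.

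Nlrc5 (ENSMUSG00000074151, chr8:94434356-94527272, plus strand), the class I transactivator, was high and low in other libraries than most members. It stood at 391, 369 and 383.5 CPM in controls and at 484.5, 447 and 355 CPM in Rnmt cKO libraries. Rnmt cKO 1 and 2 exceeded every control while Rnmt cKO 3, the highest library for 7 of the other 9 members, was the lowest of all 6. The log2 fold change of Nlrc5 was 0.17 ± 0.14 (SE), with an exact test adjusted p of 0.425. Without Rnmt cKO 3 it was 0.27 with an adjusted p of 0.00838, the only 1 of 16 other settings in which Nlrc5 passed, in a range up to 0.842.

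Most of these genes had the same extreme libraries. Control 3 was the lowest of 6 for 9 of 10 members, as it was for 20.5% of all genes tested, and Rnmt cKO 3 was the highest for 7, as for 24.1% of all genes. Some genes outside the members had the same lowest library: Control 3 was also the lowest for H2-Q4, Psmb8, Irf9 and Isg15, though not for Calr or Canx. These are single examples, and no count over a list is given. Members summed to 6468 to 7762 CPM in controls and to 7280 to 8499 CPM in Rnmt cKO libraries, ranges that overlap. As a share of all sense gene counts, before TMM scaling, they held 0.708%, 0.723% and 0.632% in Control 1, 2 and 3 and 0.822%, 0.780% and 0.841% in Rnmt cKO 1, 2 and 3, and these did not overlap. With library size as the only scaling, 8 members were separated upwards and 4 passed the threshold. The share of all genes separated under this scaling was not computed. Of 12336 genes 1938 were higher under it, and the median of all genes moved by 0.12. Relative to that median the members stood at 0.14 under both scalings. Calls over all genes also shifted, from 53.9% higher to 78.4% higher.

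Libraries were also split into a set with a lower and a set with a higher share of reads outside genes. This was added after the data were seen, with no test, and each set held 1 library in 1 of its groups. Shares still differed within the lower set, at 31.8% in Rnmt cKO 3 against 36.1% and 39.7% in Controls 1 and 2. The split therefore does not adjust for the share. The member median was 0.20 for Rnmt cKO 3 over Controls 1 and 2 and 0.25 for Rnmt cKO 1 and 2 over Control 3. Over all genes it was -0.0087 and 0.01. The library alone in its group was in each set an extreme one for the members. Rnmt cKO 3 was the highest of 6 for 7 members and Control 3 the lowest for 9. The member medians of the sets are therefore not separate support for a difference. Tapbp was at 0.43 and 0.49 in these sets, and H2-M3 and Nlrc5 at -0.09 and -0.10 in the first and 0.28 and 0.28 in the second.

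Per length, the members spanned a wide range in an order that was the same in both groups. In controls B2m led with 2123 ± 211 RPKM, followed by H2-K1 with 1343 ± 121, H2-D1 with 706 ± 74.6 and H2-T23 with 201 ± 33.2 RPKM (SD, n = 3 for each). Peptide loading genes came next, Tapbp with 104.5 ± 12.4, Tap1 with 87.0 ± 9.50 and Tap2 with 55.5 ± 4.09 RPKM (SD, n = 3 for each). Nlrc5 with 46.95 ± 1.40, Erap1 with 35.7 ± 0.479 and H2-M3 with 27.7 ± 3.07 RPKM (SD, n = 3 for each) closed the order. Control ranges of neighbours overlapped for Tapbp and Tap1 alone, and in Rnmt cKO libraries for Tap2 and Nlrc5 alone. B2m exceeded 99.9% of protein-coding genes in mean control RPKM and H2-M3 exceeded 80.1%.

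**Figure D2:**
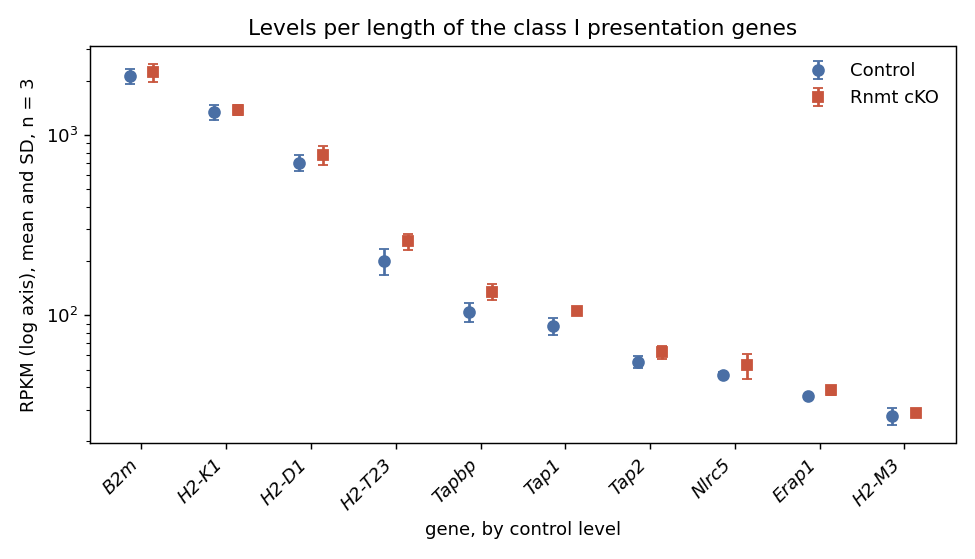
Level per length in RPKM (log axis) of the 10 class I presentation genes, ordered by control level, as mean and SD of 3 Control (blue circles) and 3 Rnmt cKO (red squares) libraries. B2m, H2-K1 and H2-D1 stand above the rest, and the difference between groups is small beside the range from 27.7 RPKM for H2-M3 to 2123 RPKM for B2m.

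The pathway beyond the members was described by gene lists. Among 13 tested non-classical heavy chain and class I-like genes, which include H2-T23 and H2-M3, 2 were higher, 0 were lower (1 at an unadjusted p under 0.05, 0 by the quasi-likelihood test or DESeq2), with 0.27 as the median log2 fold change. The 2 are to be read against the 8.00% of all genes that were higher. Cd1d1, which presents lipids to NKT cells, rose from 32.2 ± 4.20 to 44.4 ± 3.94 CPM (SD, n = 3 in each group; log2 fold change 0.46, exact test adjusted p of 0.00451). H2-Q4 rose from 295 ± 28.1 to 384 ± 51.9 CPM (SD, n = 3 in each group; log2 fold change 0.38, adjusted p of 0.0197). Neither passed without Control 3 or Rnmt cKO 1, where the list had 0 higher, and without Rnmt cKO 3 it had 5. Without Rnmt cKO 1 the list had 1 lower. The Q and T genes are near-copies of each other, and their unique counts are uncertain too.

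Peptide transport, loading and trimming held 12 tested genes, 4 of them members, of which Tapbp alone was higher and 0 were lower, also at an unadjusted p under 0.05 and by the quasi-likelihood test and DESeq2. Its median was 0.15 on the log2 scale. Of the chaperones that serve glycoproteins in general, Calr (calreticulin) was at 0.27, Pdia3 (ERp57) at 0.07 and Canx (calnexin) at -0.20 (adjusted p-values 0.0815, 0.769 and 0.237). The list had 3 higher without Control 1 and 0 without Control 2, Control 3 or Rnmt cKO 1, and 1 lower without Rnmt cKO 3.

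Proteasome genes did not pass the test with all 6 libraries and TMM scaling. Of 7 immunoproteasome and proteasome activator genes 0 were higher and 0 lower, with 1 higher at an unadjusted p under 0.05, 0 by the quasi-likelihood test and DESeq2, and a median log2 fold change of 0.09. The inducible catalytic subunits Psmb8, Psmb9 and Psmb10, which replace Psmb5, Psmb6 and Psmb7 in the particle, were at 0.30, -0.05 and 0.21 (adjusted p-values 0.0852, 0.820 and 0.369). The activator subunits Psme1 and Psme2 were at 0.09 and -0.04. Psmb5, Psmb6 and Psmb7 were at -0.21, -0.15 and -0.02, with 0 of 3 past the threshold, also at an unadjusted p under 0.05 and by both other tools. The first list had 1 higher without Control 1 and 2 higher with library size only or with the share of reads outside genes as a covariate, and the second had 1 lower without Rnmt cKO 3.

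Inducible subunits were also set against the constitutive subunits they replace. The ratio of Psmb8 to Psmb5 RPKM was 10.5, 10.4 and 13.8 in controls and 16.9, 17.6 and 14.8 in Rnmt cKO libraries. All 3 Rnmt cKO libraries were above all controls, although Psmb5 held only 13.1 ± 2.94 CPM in controls (SD, n = 3). Psmb10 to Psmb7 was 1.34, 1.20 and 1.03 in controls and 1.40, 1.36 and 1.41 in Rnmt cKO libraries, again without overlap. Psmb9 to Psmb6 overlapped, at 0.702 ± 0.0325 and 0.763 ± 0.133 (SD, n = 3 in each group). These ratios were not tested.

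The steps before and after the loading complex held no call in the exact test. Of 8 cytosolic and endosomal peptidases and of 9 genes of endoplasmic reticulum entry and class I export, 0 passed the threshold in either direction, also at an unadjusted p under 0.05 and by the quasi-likelihood test and DESeq2. Their median log2 fold changes were 0.03 and -0.04. Without Rnmt cKO 3, 3 genes of entry and export were lower. Each list had 1 higher with library size only and with the covariate, and the peptidases had 1 lower with the covariate.

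**Figure D3:**
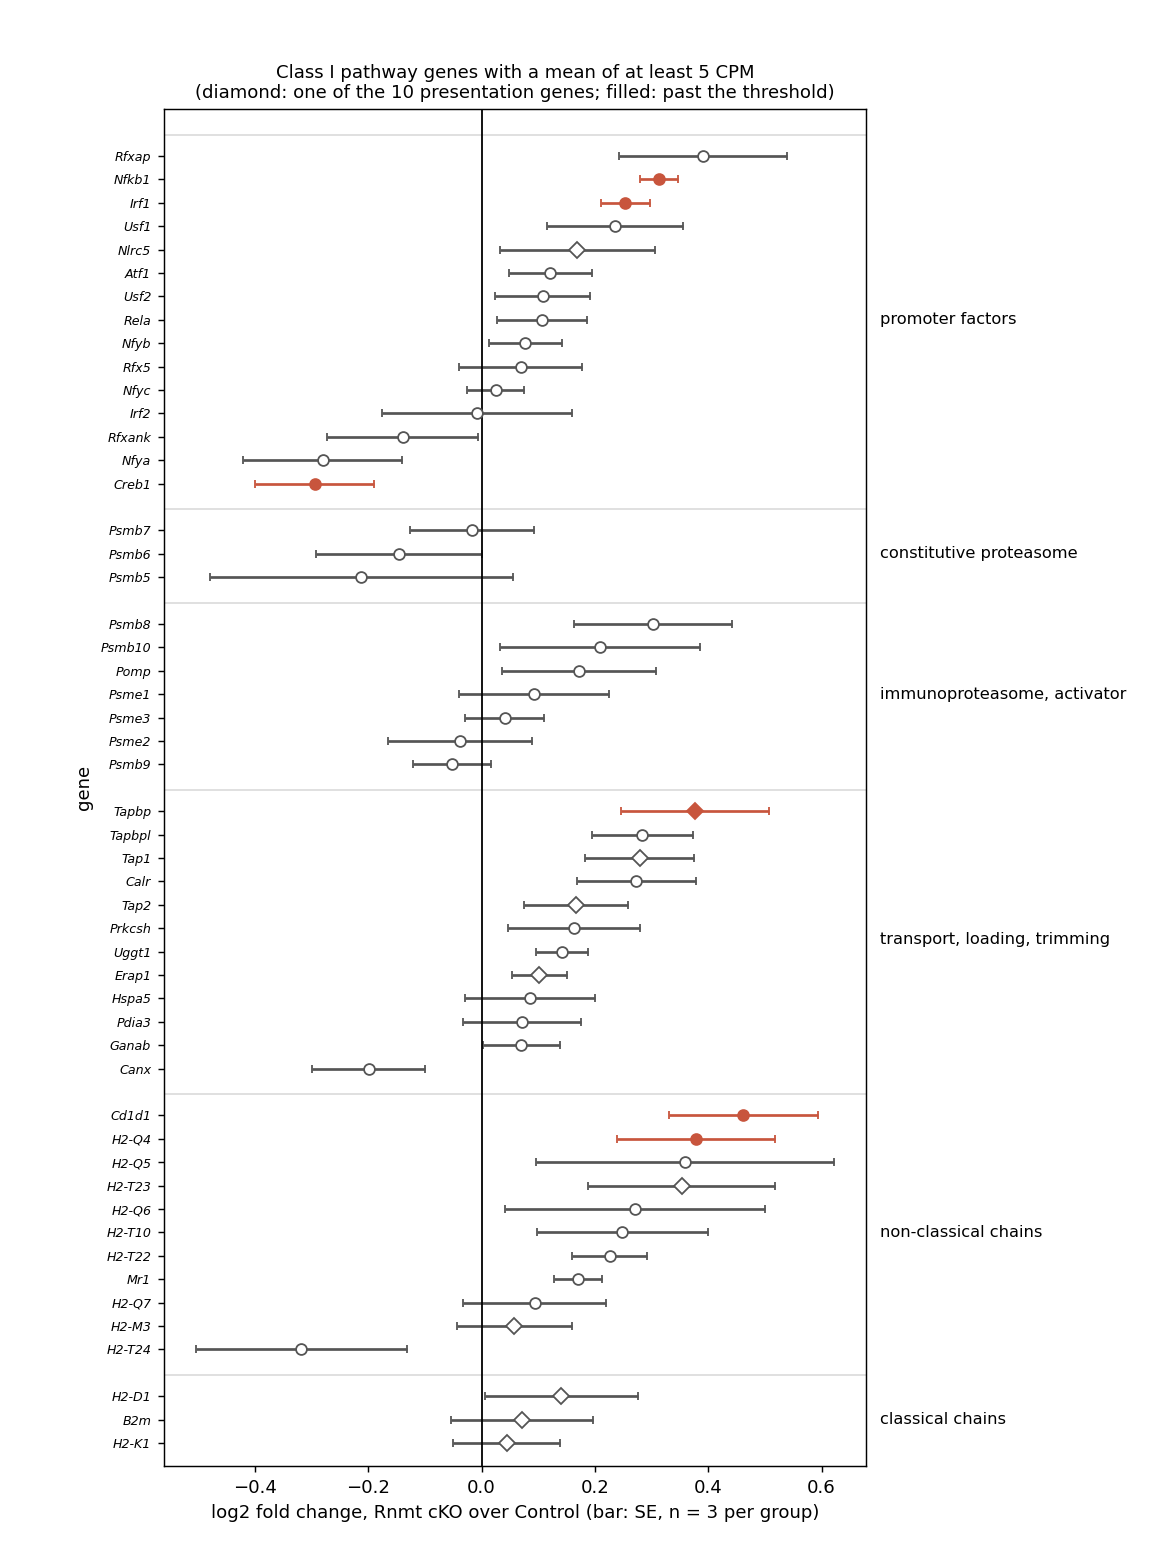
Log2 fold change, Rnmt cKO over Control, with its standard error (n = 3 per group) for class I pathway genes with a mean of at least 5 CPM, grouped by role. Diamonds are the 10 presentation genes, and filled red symbols are past an adjusted p of 0.05. Tapbp, at 0.38, is the only filled diamond, and the proteasome and classical chain groups hold no filled symbol.

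Transcription factors that act on class I promoters gave mixed calls, with 2 of 15 higher, 1 lower and a median log2 fold change of 0.11. These counts are near the background of 8.00% higher and 6.84% lower among all genes. Nfkb1, which encodes the p50 subunit of NF-κB, had 302, 311 and 317 CPM in controls and 373, 383.5 and 398 CPM in Rnmt cKO libraries, a log2 fold change of 0.31 with an exact test adjusted p of 0.00766. Irf1, an interferon-induced activator of class I genes, had 275, 256 and 251 CPM in controls and 317, 309 and 305 CPM in Rnmt cKO libraries, with a log2 fold change of 0.25 and an adjusted p of 0.0446. Both were separated, and both were short of the threshold without Control 1, Control 2 or Rnmt cKO 2. Creb1 was lower, at -0.29 with an adjusted p of 0.0481, and the list had 0 lower when Control 2, Control 3, Rnmt cKO 1 or Rnmt cKO 2 was left out and 2 lower when Control 1 was. It also had 0 lower by the quasi-likelihood test with or without the replicate block and with library size only. The same was true without the filter on low counts, with more than 1 CPM in all 6 samples and with either-strand counts. By the quasi-likelihood test and by DESeq2 the list had 1 higher, and with library size only 4. The RFX subunits through which NLRC5 acts did not pass: Rfx5 had a log2 fold change of 0.07, Rfxap of 0.39 and Rfxank of -0.14 (adjusted p-values 0.813, 0.0842 and 0.591).

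Interferon signalling acts on several of these promoters, and its genes were described beside the members. Of 18 interferon receptor, JAK-STAT and IRF genes 8 were higher, 0 were lower (1 at an unadjusted p under 0.05, 0 by the quasi-likelihood test and DESeq2), with a median log2 fold change of 0.25. Irf9, the DNA-binding subunit of the factor that type I interferon activates, had 173, 151 and 132 CPM in controls and 237, 212 and 227 CPM in Rnmt cKO libraries. The groups did not overlap, and the log2 fold change was 0.57 with an exact test adjusted p of 1.72e-05. The feedback inhibitors Socs3 and Socs1 rose by 1.66 and 0.91 on the log2 scale, with adjusted p-values of 6.95e-56 and 1.16e-11, and Socs3 went from 150 to 164 CPM in controls to 470 to 537 CPM in Rnmt cKO libraries. Irf7 was at 0.58 with an adjusted p of 0.0309 although its groups overlapped. The list had 5 higher without Control 2 or Control 3.

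Of 48 tested interferon-stimulated genes outside antigen presentation 25 were higher and 1, Gbp7, was lower, with a median log2 fold change of 0.42 against 0.15 for the members. Gbp7, at -0.25 with an adjusted p of 0.0392, was named after its values were seen. That single lower call was lost, leaving 0 lower, by the quasi-likelihood test with or without the replicate block, by DESeq2, with library size only, without the filter on low counts, with either-strand counts, and without Control 1, 2 or 3 or Rnmt cKO 1 or 2. Isg15, Mx1, Rsad2 and Oas2, which encode antiviral effectors, rose by 1.49, 1.21, 1.18 and 1.13 on the log2 scale, with adjusted p-values of 1.80e-06, 3.76e-05, 0.0256 and 0.000989. They were scarce transcripts, at 4.04 to 17.4 CPM on average in controls, and Isg15 ran from 5.30 to 7.41 CPM in controls to 11.0 to 22.3 CPM in Rnmt cKO libraries. The list had 16 higher without Control 3 and 15 without Rnmt cKO 1, and between 15 and 33 over 16 other settings. Its members were chosen with earlier results of these libraries known.

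**Figure D4:**
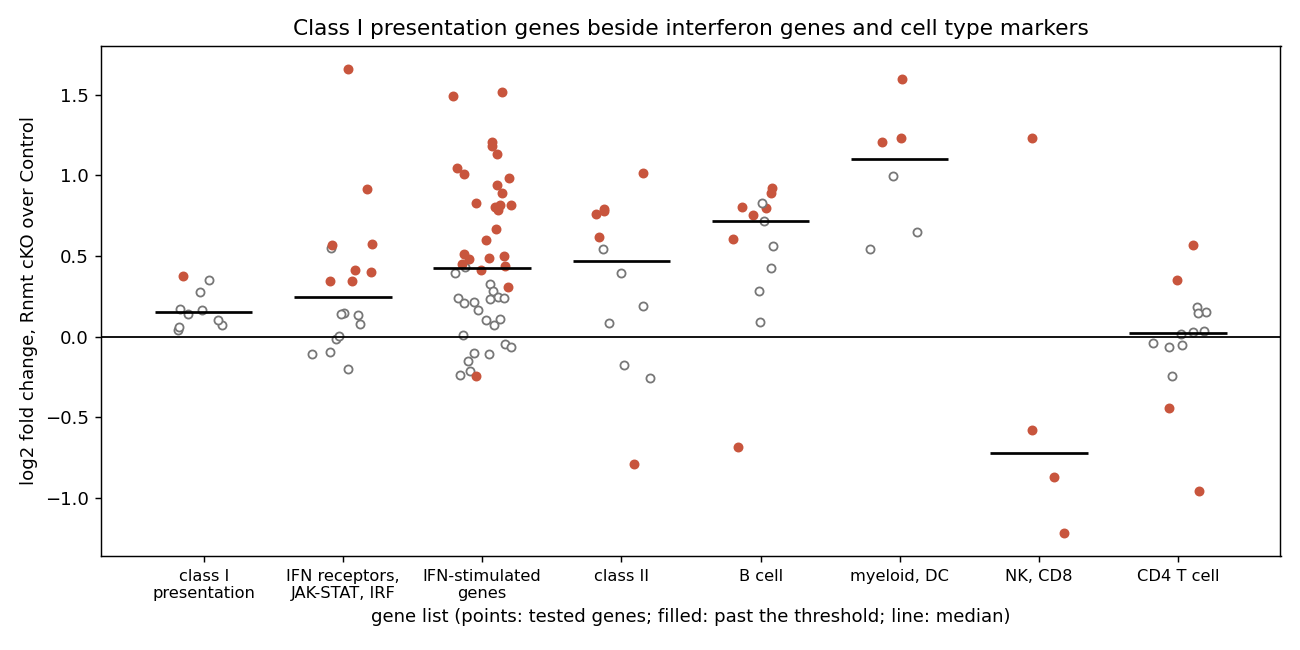
Log2 fold change, Rnmt cKO over Control, of each tested gene in the class I presentation list and 7 other lists, with filled red points past an adjusted p of 0.05 and a line at each list's median. The class I points lie between 0.04 and 0.38 with 1 filled, while interferon-stimulated genes reach above 1.4 and myeloid genes have a median of 1.10.

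Markers of other cells moved as well, and some of those cells carry class I and class II genes. Of 13 B cell markers 6 were higher and 1, Ighm, was lower, with a median log2 fold change of 0.72. Ms4a1, Cd22 and Cr2 were at 0.75, 0.80 and 0.80. The list summed to 350 to 417 CPM in controls and to 268 to 336 CPM in Rnmt cKO libraries, and Ighm, its most abundant gene, fell from 319 ± 32.1 to 198.5 ± 17.0 CPM (SD, n = 3 in each group). The list had 1, 2 and 0 higher without Control 1, Control 3 and Rnmt cKO 2.

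Myeloid and dendritic cell markers were scarce. Of 15 listed, 6 were tested, 3 were higher and 0 lower (also at an unadjusted p under 0.05 and by both other tools), and the summed level was 13.7 to 15.6 CPM in controls and 23.8 to 41.9 CPM in Rnmt cKO libraries. Lyz2 was the named gene of the list, at 2.75 ± 0.658 and 8.31 ± 4.80 CPM (SD, n = 3 in each group; log2 fold change 1.60, adjusted p of 0.00123). Of 12 class II presentation genes 5 were higher and 1 lower, with a median log2 fold change of 0.47: H2-DMb2, H2-Eb1 and Ciita were at 1.01, 0.79 and 0.78, and H2-Ob at -0.79. Ctss, the most abundant gene of that list, was at -0.17 with an adjusted p of 0.446. The list had 2 higher without Control 3 or Rnmt cKO 2. Of the B cell, myeloid and NK and CD8 T cell markers, 0 were at 0 in all 6 libraries. The part of other cells in the class I values was not tested.

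Among NK and CD8 T cell markers 4 of 10 were tested, with 1 higher and 3 lower. The list had 2 lower by the quasi-likelihood test and by DESeq2, 1 lower without Rnmt cKO 2, and 1 lower and 0 higher with the replicate block. Eomes was at 1.23, Prf1 at -1.22 and Cd8b1 at -0.58, and the list summed to 56.7 to 66.1 CPM in controls and to 35.9 to 45.1 CPM in Rnmt cKO libraries. Of the 14 CD4 T cell markers 2 were higher and 2 lower. Cd4 rose by 0.35 on the log2 scale, Il7r fell by 0.96 and Cd3g fell by 0.44, and the median was 0.02. The list had 1 higher without Control 2, and 1 lower without Control 1, Rnmt cKO 1 or Rnmt cKO 2.

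The members lie close together in the genome. Of the 10, 7 fall in 1 stretch of the MHC, chr17:33915899-37274484, from Tapbp to H2-M3, while B2m, Erap1 and Nlrc5 are on chromosomes 2, 13 and 8. Of the 105 other genes tested in that stretch, 14 were higher and 6 lower, 13.3% higher against 8.00% of all genes, 23 were separated upwards and 8 downwards, and 69.5% had a log2 fold change above 0. Their median of 0.10 lay between the 0.01 of all genes and the 0.15 of the members. These 105 genes take in antigen presentation genes of the lists above, such as Psmb9, which overlaps Tap1, and are not all unrelated neighbours.

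**Figure D5:**
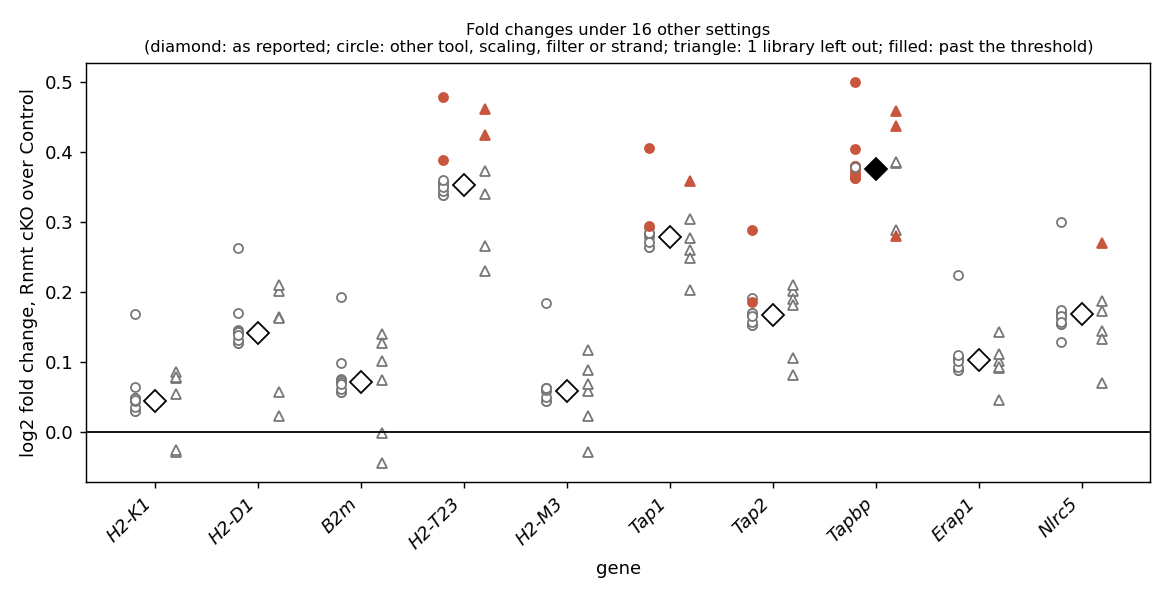
Log2 fold change of each class I presentation gene as reported (diamond) and under 16 other settings, with circles for another tool, scaling, filter or counted strand, triangles for 1 library left out, and filled symbols past an adjusted p of 0.05. Tapbp stays between 0.28 and 0.50 and is past the threshold in 12 of 16, whereas H2-K1, B2m and H2-M3 cross 0 when Control 3 is left out.

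For 7 of the 10 genes, H2-D1, H2-T23, Tap1, Tap2, Tapbp, Erap1 and Nlrc5, the log2 fold change was above 0 under all 16 other settings. These settings reuse the same libraries, so their values are not independent. The share of all genes that kept their sign is not given here. Of 160 values in all, 141 kept both direction and side of the threshold, 10 moved past the threshold, 4 lost it and 5 changed sign. The 4 that lost it were all values of Tapbp.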

How the data were processed

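Naïve CD4 T cell libraries were rRNA-depleted and sequenced. The authors aligned reads to the mm10 genome with STAR 2.5.2b and deposited raw counts of uniquely mapped reads per gene for either strand, the sense strand and the opposite strand, with no normalization. The authors also deposited a table with a normalized signal per sample, used only to find that the sense column underlies it, and with their own fold changes and p-values, which were not used. Reads assigned to no gene were left out of library sizes, at 31.8% to 47.9% of uniquely mapped reads.

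From the sense counts, genes above 1 CPM in at least 3 samples (12336) were scaled by TMM and compared in edgeR 4.0.16 (R 4.3.3) by its exact test with tagwise dispersions, all 6 libraries in the fit and no covariate, with Benjamini-Hochberg adjustment over all tested genes and a threshold of 0.05. The use of edgeR and its exact test follows the study, as does the filter as worded in its methods. The study does not state the scaling, dispersions or covariates. Its counts of 845 increased and 753 reduced genes differ from the 987 and 844 obtained here. Those 2 counts, 845 and 753, were reached here when every library had to exceed 1 CPM. That left 11232 genes, against 11221 in the authors' table. Standard errors come from per-library log2 CPM with a prior count of 2. RPKM used merged exon length. The code was tested on simulated data. Alternatives were the quasi-likelihood test, DESeq2 1.42.0, other scalings, filters and strands, a replicate block, a covariate and leaving out each library. Gene coordinates come from GENCODE vM21 on GRCm38, and promoters from RefSeq.

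The members and gene lists were chosen with earlier results of these data known. Named genes are the members, up to 4 genes per list past the threshold with the largest change and a mean of at least 5 CPM, the most abundant gene of a marker list, and fixed pathway partners whatever their values. Protein sequences, and promoters of Tap2 and Nlrc5, are not shown here. Some genes that meet the rule for named genes are not reported here.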

Additional observations from a re-analysis of the deposited data

Results flagged for a closer look

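Reads on the strand opposite to a gene were not used in any comparison above. For 3 members they were higher in every Rnmt cKO library than in every control. The share of all genes separated on that strand was not computed, so this count has no background to be read against. Opposite-strand reads at Tap1 stood at 2.82, 2.20 and 1.10 CPM in controls and at 5.60, 4.81 and 5.47 CPM in Rnmt cKO libraries, a mean of 2.04 ± 0.869 against 5.29 ± 0.424 CPM (SD, n = 3 in each group). Psmb9 starts on the other strand beside Tap1 and overlaps it over 212 bases. The means of Control and Rnmt cKO libraries were 3.47 ± 0.809 and 5.17 ± 0.561 CPM at H2-K1, and 2.13 ± 0.502 and 3.78 ± 0.853 CPM at H2-D1 (SD, n = 3 in each group). They made up 1.30%, 0.194% and 0.193% of reads of both strands at Tap1, H2-K1 and H2-D1, rest on 10 to 69 reads per library, and were not tested.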

How the results depend on the processing

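The number of members past the threshold was 4 with library size only and 4 with the share of reads outside genes as a covariate, and 0 to 3 with 1 library left out. Members separated upwards numbered 8 with library size only and 2 to 4 with 1 library left out. Shares of all genes separated under these settings were not computed, and separation is easier to reach with fewer libraries. The median was 0.28 with library size only, 0.08 to 0.19 with 1 library left out, and 0.14 to 0.16 under the other planned settings. Changes of sign came from leaving out Control 3 or Rnmt cKO 3 for H2-K1 (-0.030 and -0.025) and B2m (-0.0017 and -0.044), and Control 3 for H2-M3 (-0.030). With 1 library left out these genes ranged from -0.030 to 0.085, from -0.044 to 0.14 and from -0.030 to 0.117. Calls over all genes numbered 987 higher and 844 lower, and 1938 and 535 with library size only, 1696 and 1466 with the covariate, 643 to 1221 and 547 to 1285 with 1 library left out. With the covariate Tap2 was past the threshold (0.19, adjusted p of 0.0233), as with library size only (0.29, 0.0250). Over the 16 settings the genes called higher ran from 0 to 6 in the transport, loading and trimming list (1 as reported), 0 to 5 in the non-classical list (2), 0 to 4 among promoter factors (2), 5 to 9 among interferon receptor, JAK-STAT and IRF genes (8), 15 to 33 among interferon-stimulated genes (25), 2 to 6 among class II genes (5), 0 to 9 among B cell markers (6) and 0 to 4 among myeloid markers (3). The cause of these changes was not tested.

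Same-numbered samples correlated at -0.213, -0.016 and -0.345 in their deviations from the group means. Such deviations sum to 0 within a group, so the correlations are tied to each other and cannot show whether the libraries were paired. With a replicate block 0 members were past the threshold, Tapbp was at 0.38 with a quasi-likelihood adjusted p of 0.148, and 431 genes were higher and 276 lower.

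With 3 libraries per group, standard errors of the members' log2 fold changes had a median of 0.11, so that shifts of the size seen here lie near the limit. H2-M3, the member with the fewest reads, rested on 316 to 489 sense reads per library. Separation was not recomputed where a setting leaves the CPM as they are, as with the quasi-likelihood test.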
